A study of Mus musculus with 12 samples.

Results

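The transcription factor gene Trp53 and 9 genes known as direct transcriptional targets of its protein, p53, were followed in mouse thymocytes and thymic lymphoma. The set of 10 genes (Trp53, Mdm2, Cdkn1a, Ccng1, Zmat3, Phlda3, Sesn2, Trp53inp1, Aen and Eda2r) was given by symbol, by a rule that uses no measured value. All 10 were found by Ensembl ID among the 50600 gene IDs of the count files, and all 10 were among the 16052 genes that passed the filter on low counts and were tested. The study asked what loss of the DNA methyltransferase DNMT1 does to T-cell lymphomagenesis driven by the oncogenic fusion kinase NPM-ALK, and poly(A) RNA was sequenced from 12 mice, 3 in each of 4 groups. Each library is 1 mouse, so that the error terms below are spread between mice.

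The Ctrl group consisted of thymocytes from DNMT1 fl/fl mice, which carry loxP sites in both Dnmt1 alleles but no Cre, at 25, 21 and 20 wk of age. The KO group consisted of thymocytes from DNMT1 fl/fl CD4-CRE mice at 20, 20 and 21 wk. The ALK group consisted of T cell lymphoma cells of NPM-ALK+ mice at 24, 22 and 31 wk, for which the labels name no floxed allele. The ALKKO group consisted of thymocytes of mice labelled NPM-ALK+, DNMT1 fl/fl CD4-CRE, at 25, 21 and 19 wk. All mice were male except replicate 2 of KO. The transgene encodes the human fusion protein and is driven by the Cd4 enhancer and promoter, and Cre is driven by Cd4 sequences that also hold the silencer. ALK libraries are tumors and the other 9 are thymocytes, so tumor state and Dnmt1 genotype cannot be told apart where ALK is compared with ALKKO.

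p53 is held at a low level by the ubiquitin ligase MDM2, whose gene is itself a p53 target, which closes a negative feedback loop. When DNA damage or oncogene signaling releases p53 from MDM2, it binds its response elements and raises transcription of genes that stop the cell cycle, promote apoptosis or limit oxidative damage. Thymocytes are known for a particularly sensitive p53 response, and mice without p53 commonly develop thymic lymphoma. Much of the control of p53 acts on the protein, which was not measured here.

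Reads counted on genes ranged from 12473857 to 18864327 per library (median 15262212), and levels are given as CPM, the read count of a gene scaled to the size of its library after TMM normalization. A floor of 3 counts corresponded to 0.159 to 0.241 CPM. Reads listed but counted on no gene, most of them without a unique alignment, were 55.3%, 51.9% and 53.1% in ALK and 43.8% to 50.1% in the 9 thymus libraries, so that the tumors lay above all of these, and the part of this in the results of ALK was not tested. Raw counts of the members lay between 7 and 160 for Eda2r, between 108 and 1007 for Cdkn1a, Phlda3, Sesn2, Zmat3 and Aen, and between 1455 and 28022 for the remaining 4. Dnmt1 ranged from 400 to 487 CPM in Ctrl, and from 379 to 788 CPM in the tumors, against 206 to 244 CPM among KO libraries and 205 to 244 CPM among those of ALKKO. Reads counted on the mouse Alk gene were at 0.107 to 0.431 CPM without the transgene (Ctrl and KO), and at 34.9 to 55.0 CPM with it (ALK and ALKKO). The transgene is human and reads were aligned to the mouse genome, so transgene reads and those of the endogenous gene cannot be told apart here. The labelled cell type was checked by 12 thymocyte markers, whose summed level was 9446 to 12840 CPM in 8 of the 9 thymus libraries, 4283 CPM in KO replicate 2 and 4095 to 5477 CPM in ALK. Cd3e was present in every library (214 to 587 CPM), and Rag1 was listed at 0 in every library. KO replicate 2 also stood apart in the 6 B cell markers (5436 CPM, against 936 to 2690 CPM in the other thymus libraries) and in the 8 myeloid markers (2237 CPM, against 415 to 621 CPM), of which Itgam was listed at 0 in every library. Counts of genes passing in the KO group are given with and without this library.

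The promoter windows of the members were searched for the p53 decamer, the 10-base unit of the p53 response element, of which a classical element holds a pair. The windows (RefSeq, GRCm38.p6) run from 250 bases before to 50 bases after a transcription start, and 8 of the 10 members have one. Exact matches, which cover both strands because the pattern is its own reverse complement, were found in 5 of these 8 genes, against 9.55% of 27025 genes and 8.36% of 32851 windows. Of the 8, only Cdkn1a held a pair of decamers no more than 13 bases apart, as did 24 windows in all (0.0731%). The 5 genes with a match are shown because they include the gene for p53 itself and its best known target, with the decamers in capitals and the strand of the gene:
Cdkn1a (chr17:29090886-29090957, plus strand): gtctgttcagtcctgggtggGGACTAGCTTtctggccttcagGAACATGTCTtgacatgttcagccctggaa
Trp53 (chr11:69580274-69580303, plus strand): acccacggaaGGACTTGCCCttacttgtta
Mdm2 (chr10:117710925-117710954, minus strand): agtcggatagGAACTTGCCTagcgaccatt
Ccng1 (chr11:40755452-40755481, minus strand): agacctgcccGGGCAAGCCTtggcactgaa
Aen (chr7:78895927-78895956, plus strand): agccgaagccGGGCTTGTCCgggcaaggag
The pair in Cdkn1a is separated by 12 bases. It lay in the window chr17:29090729-29091028, and the other window of Cdkn1a, chr17:29093519-29093818, held no exact match. Decamers that depart from the pattern were not searched for, so the marked pair need not be the element that p53 binds. No exact match lay in the windows of Phlda3, Sesn2 and Eda2r, which says only that these letters are not in those windows. A match describes the sequence and not binding. The genes with a match differed in their results in ALK against Ctrl: Trp53 rose, Cdkn1a and Mdm2 fell, and Ccng1 and Aen did not pass the test.

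In ALK tumors the transcript of Trp53 was higher than in Ctrl thymocytes, while those of its targets moved in both directions. Of the 10 genes, 6 differed at an adjusted p under 0.05 (the quasi-likelihood test of edgeR, Benjamini-Hochberg adjusted over all 16052 genes), 2 higher (Trp53 and Zmat3) and 4 lower (Trp53inp1, Phlda3, Cdkn1a and Mdm2). Among all genes tested 29.5% passed, 14.8% higher and 14.7% lower. With the added requirement of a 2-fold change, 4 of the 10 remained (Zmat3, Trp53inp1, Phlda3 and Cdkn1a), against 20.4% of all genes. The median log2 fold change of the 10 genes was -0.25, and that of all genes tested was 0.05. The oldest mouse was ALK replicate 3 at 31 wk, and with labelled age as a covariate 3 of the 10 passed (Trp53, Zmat3 and Trp53inp1), beside 26.7% of all genes. The count was also 3 without Ctrl replicate 2 (18.5% of all genes) and without Ctrl replicate 3 (18.3%).

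**Figure D1:**
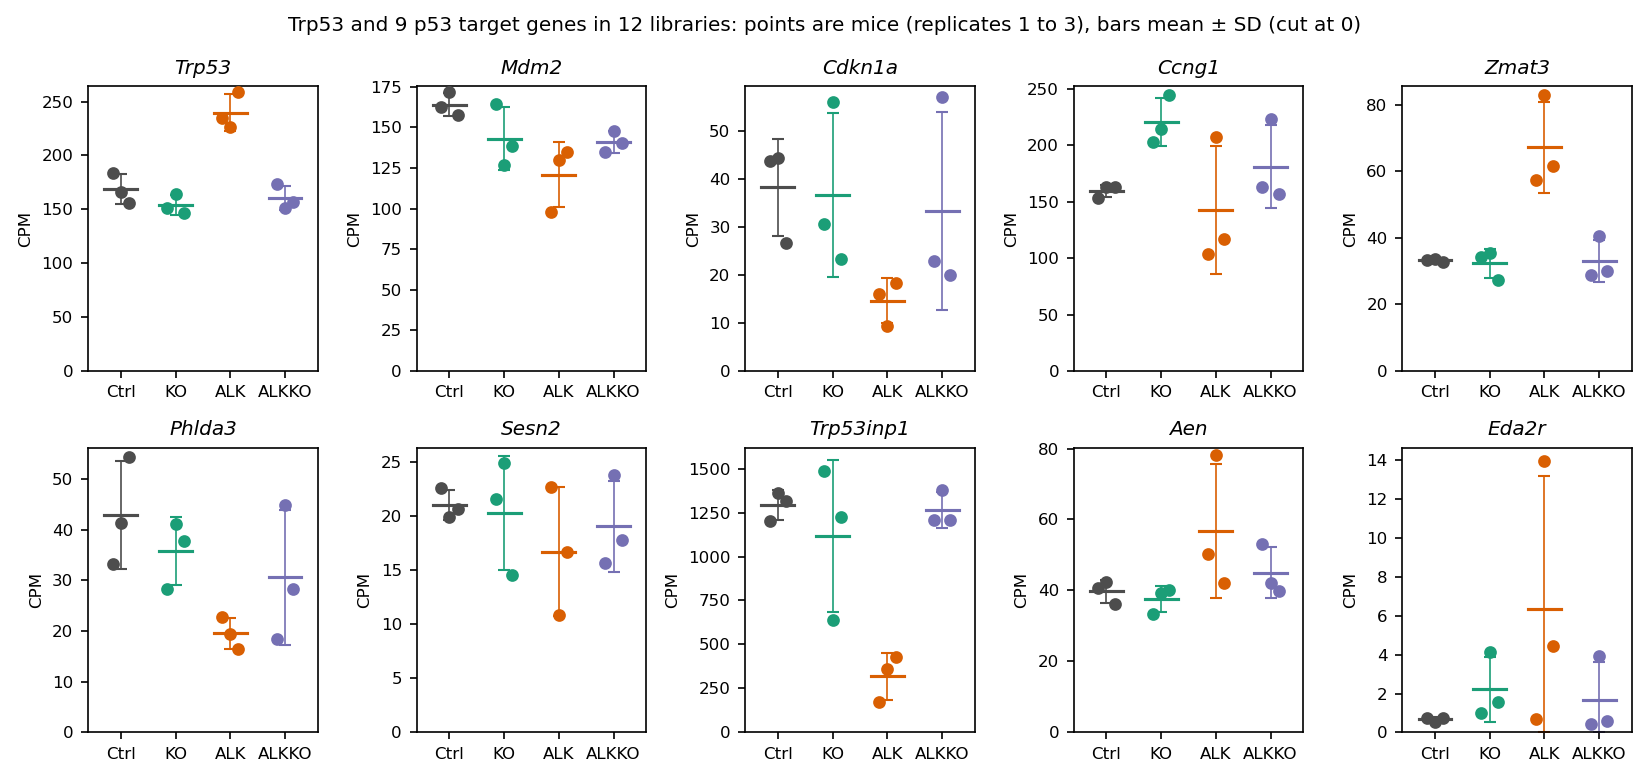
Level in CPM (vertical axis, from 0) of each of the 10 genes in the 12 libraries. Points are mice, in the order of replicates 1 to 3, the horizontal bar is the group mean and the vertical bar 1 SD (n = 3 mice), cut at 0. Trp53 and Zmat3 are highest in the 3 ALK libraries, Trp53inp1 and Cdkn1a are lowest there, and Eda2r has wide SD bars in KO, ALK and ALKKO.

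Trp53 (ENSMUSG00000059552, chromosome 11, 69580359 to 69591873 on the plus strand of GRCm38), which encodes p53, was measured at 184, 166 and 156 CPM in Ctrl, 151, 165 and 147 CPM in KO, 234, 226 and 259 CPM in ALK, and ALKKO libraries held 173, 152 and 157 CPM. The 3 tumors lay above all 9 thymus libraries, and the 3 thymus groups overlapped one another. The mean was 240 ± 17.0 CPM in ALK and 169 ± 14.1 CPM in Ctrl (SD, n = 3). This is a rise of 1.42-fold (log2 fold change 0.51, SE 0.11, adjusted p = 0.00842, edgeR), which passed the test in 20 of 20 alternative analyses.

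Mdm2 (chromosome 10, 117688875 to 117710758, minus strand), the ligase that marks p53 for degradation, was at 162, 172 and 158 CPM in Ctrl, 164, 127 and 138 CPM in KO, 97.8, 130 and 135 CPM in ALK, and ALKKO libraries held 135, 148 and 140 CPM. All 3 tumors lay below all 3 Ctrl libraries, but they overlapped KO and ALKKO. The difference from Ctrl was 1.36-fold (log2 fold change -0.44, SE 0.14, adjusted p = 0.0423, edgeR) and was lost when single mice were left out. Without Ctrl replicate 1, 2 or 3 the adjusted p of Mdm2 was 0.0849, 0.102 and 0.0774, without ALK replicate 1 it was 0.0856, without ALKKO replicate 3 it was 0.054, and with age as a covariate it was 0.0642 (edgeR).

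Cdkn1a (chromosome 17, 29090976 to 29100727, plus strand), which encodes the cyclin-dependent kinase inhibitor p21, the main effector of p53-dependent cell cycle arrest, was at 43.8, 44.3 and 26.6 CPM in Ctrl, and the tumors held 16.1, 9.43 and 18.4 CPM. It was at 30.6, 55.9 and 23.4 CPM in KO, and ALKKO libraries held 22.9, 56.9 and 19.9 CPM. The tumors held the 3 lowest values of the 12, while replicates 2 of KO and ALKKO held the 2 highest. Mean levels were 14.6 ± 4.64 CPM in ALK and 38.2 ± 10.1 CPM in Ctrl (SD, n = 3), a difference of 2.61-fold (log2 fold change -1.39, SE 0.47, adjusted p = 0.0478, edgeR).

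The call of Cdkn1a was close to the threshold, and it passed in 9 of 20 alternative analyses. Its adjusted p (edgeR) was 0.119, 0.117 and 0.0596 without Ctrl replicate 1, 2 and 3, and 0.076, 0.133 and 0.0515 without ALK replicate 1, 2 and 3. It was 0.0551 without KO replicate 1, 0.0523 without ALKKO replicate 1 and 0.0604 with age as a covariate. The direction was lower in all of these. Exons of Cdkn1a overlap AC167363.2, a gene on the opposite strand, by 273 bp, and the strand setting of the counting is not given in the sources used here.

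Trp53inp1 (chromosome 4, 11156431 to 11174379, plus strand), a stress-induced nuclear protein that promotes p53-dependent apoptosis and cell cycle arrest, showed the largest fall among the 10 genes in ALK against Ctrl. It was at 1200, 1361 and 1316 CPM in Ctrl, at 1485, 638 and 1227 CPM in KO, at 171, 358 and 430 CPM in ALK, and ALKKO libraries held 1207, 1380 and 1207 CPM. The tumors lay below all 9 thymus libraries, and the lowest thymus library was KO replicate 2. The mean was 320 ± 134 CPM in ALK and 1293 ± 82.8 CPM in Ctrl (SD, n = 3), a fall of 4.04-fold (log2 fold change -2.02, SE 0.36, adjusted p = 0.00311, edgeR).

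The libraries with low Trp53inp1 were also those with a low summed level of thymocyte markers. The summed level of these markers was 10780 to 12840 CPM in Ctrl, 4095 to 5477 CPM in ALK and 4283 CPM in KO replicate 2. Of the 11 thymocyte markers tested, 6 fell in ALK against Ctrl (54.55%, beside 14.7% of all genes). The markers did not all move together. Dntt had a log2 fold change of -0.03, and that of Ptcra was 2.07 (adjusted p = 0.0595, edgeR). Ptcra was at 46.4 to 49.0 CPM in Ctrl and at 425, 142 and 32.5 CPM in ALK. In bulk RNA, fewer cells of a type and less RNA per cell cannot be told apart. Whether the share of thymocyte-like cells set the level of Trp53inp1 was not tested. B cell markers summed to 25.6 to 129 CPM in tumors (1012 to 1350 CPM in Ctrl), and the 9 epithelial and stromal markers to 971 to 1414 CPM in tumors (806 to 877 CPM in Ctrl). This sum holds opposite movements, since 3 of the 9 fell (Psmb11, Foxn1 and Krt8) and 3 rose (Col1a1, Col1a2 and Pdgfrb) in ALK against Ctrl. Each is 33.3%, beside 14.7% lower and 14.8% higher among all genes. Psmb11, a proteasome subunit of cortical thymic epithelium, was at 106 to 130 CPM in Ctrl and at 0.0672 to 0.349 CPM in tumors (adjusted p = 0.00047, edgeR), and the collagen gene Col1a1 was at 14.2 to 28.6 CPM in Ctrl and at 243 to 702 CPM in tumors (adjusted p = 0.00657, edgeR). The part of these cells in the differences between ALK and Ctrl was not tested either.

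Zmat3 (chromosome 3, 32334792 to 32366014, minus strand), an RNA-binding zinc finger protein with tumor suppressor function, went the other way. It was at 33.3, 33.7 and 32.6 CPM in Ctrl, at 34.1, 35.3 and 27.4 CPM in KO, at 57.4, 82.8 and 61.5 CPM in ALK, and ALKKO libraries held 28.7, 40.4 and 29.9 CPM. The 3 tumors lay above all 9 thymus libraries, and the Ctrl libraries differed by a coefficient of variation of 1.67%. The rise was 2.02-fold (log2 fold change 1.02, SE 0.19, adjusted p = 0.0037, edgeR) and passed the test in 20 of 20 alternative analyses.

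Phlda3 (chromosome 1, 135766119 to 135769136, plus strand), which encodes a pleckstrin homology domain protein that represses AKT signaling, was at 33.1, 41.3 and 54.3 CPM in Ctrl, and the tumors held 22.7, 19.4 and 16.5 CPM. It was at 28.2, 41.1 and 37.8 CPM in KO, and ALKKO libraries held 18.5, 44.9 and 28.3 CPM. Tumors lay below Ctrl and KO but overlapped ALKKO, where replicate 1 was as low as the tumors and replicate 2 as high as Ctrl. The fall against Ctrl was 2.20-fold (log2 fold change -1.14, SE 0.32, adjusted p = 0.0229, edgeR). The adjusted p of Phlda3 was 0.0512 without Ctrl replicate 2, 0.0925 without Ctrl replicate 3, 0.0571 without ALK replicate 2, 0.0537 without ALK replicate 3 and 0.089 with age as a covariate (edgeR).

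The other 4 targets did not pass in ALK against Ctrl. Ccng1 (chromosome 11, 40748552 to 40755311, minus strand), which encodes cyclin G1, a regulator that brings a phosphatase to MDM2, was at 154, 163 and 163 CPM in Ctrl, and the tumors held 104, 208 and 117 CPM. ALK replicate 2 lay above and the other two tumors below Ctrl. The log2 fold change was -0.16 (95% interval -0.70 to 0.37, adjusted p = 0.637, edgeR), and without ALK replicate 2 it was -0.56 with an adjusted p of 0.0427.

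Sesn2 (chromosome 4, 132492032 to 132510501, minus strand), a stress-induced inhibitor of mTORC1 signaling, was at 22.6, 19.9 and 20.7 CPM in Ctrl, and the tumors held 22.7, 10.8 and 16.7 CPM. The groups overlapped, and the log2 fold change was -0.33 (95% interval -0.99 to 0.33, adjusted p = 0.432, edgeR). Aen (chromosome 7, 78895854 to 78911209, plus strand), an apoptosis-enhancing nuclease, was at 40.7, 42.4 and 36.2 CPM in Ctrl, and the tumors held 50.3, 78.0 and 42.0 CPM. Its log2 fold change of 0.51 matched that of Trp53 in size, but the tumors were more variable (95% interval 0.03 to 0.999, adjusted p = 0.102, edgeR), and without ALK replicate 3 the adjusted p of Aen was 0.0332.

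Eda2r (chromosome X, 97333840 to 97377216, minus strand), a receptor of the TNF receptor family that binds ectodysplasin A2, was the least expressed of the 10 and had the highest coefficient of variation between mice in KO, ALK and ALKKO, though not in Ctrl. It was at 0.740, 0.536 and 0.755 CPM in Ctrl, at 1.01, 4.13 and 1.55 CPM in KO, at 0.672, 14.0 and 4.46 CPM in ALK, and ALKKO libraries held 0.424, 3.95 and 0.575 CPM. ALK replicate 1 lay within the range of Ctrl and the other two lay above it. The log2 fold change of ALK against Ctrl was 3.21 (SE 1.14, adjusted p = 0.0561, edgeR). The adjusted p of Eda2r was 0.0203 without ALK replicate 1, 0.0378 without ALKKO replicate 2 and 0.231 without ALK replicate 2, where the log2 fold change was 1.88, and it was 0.00927 with DESeq2's Wald test.

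**Figure D2:**
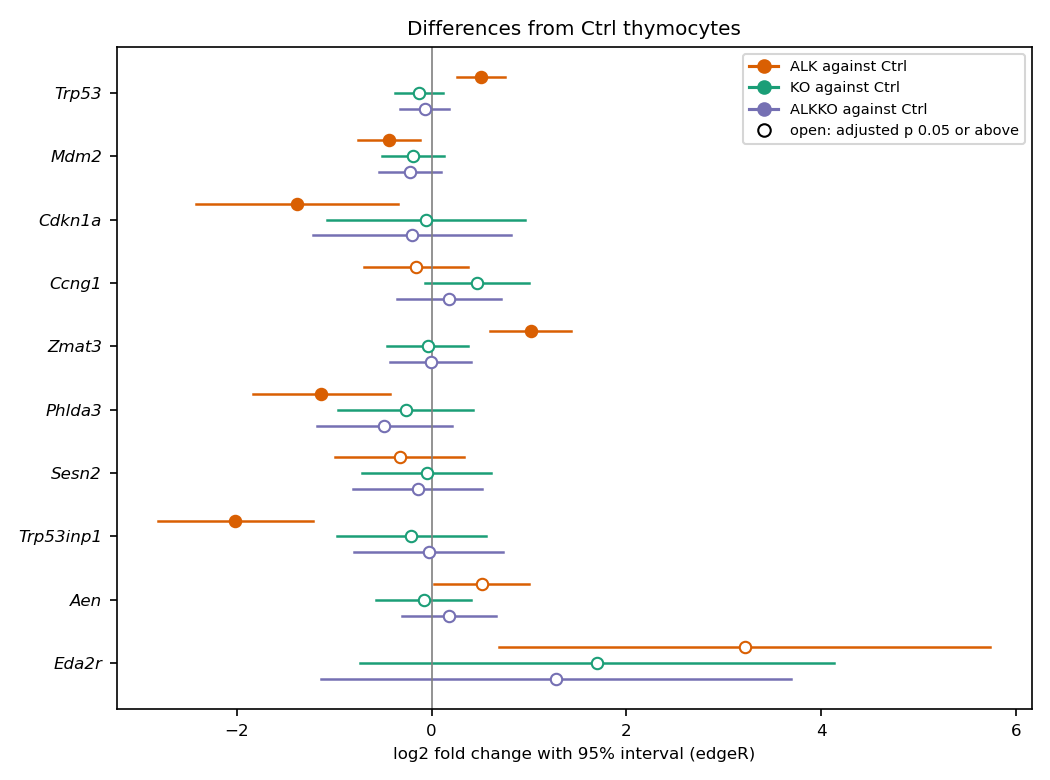
Log2 fold change (horizontal axis) of each of the 10 genes against Ctrl with its 95% interval from edgeR's quasi-likelihood fit, for ALK, KO and ALKKO (3 mice a group, the Ctrl libraries shared by all 3 comparisons). Filled points have an adjusted p under 0.05: 6 in ALK and 0 in KO and ALKKO.

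By separation of the libraries alone, 6 of the 10 genes had no overlap between the 3 ALK and the 3 Ctrl libraries, against 46.4% of all genes tested. Set against all 9 thymus libraries, 4 of the 10 did not overlap (Trp53 and Zmat3 above, Trp53inp1 and Cdkn1a below), against 28.9% of all genes. The tumors did not share 1 profile of the targets. ALK replicate 2 had the highest Zmat3, Aen, Ccng1 and Eda2r and the lowest Cdkn1a and Sesn2 of the 3, and ALK replicate 1 the lowest Trp53inp1, Mdm2 and Eda2r.

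No change of the 10 genes passed the test after deletion of Dnmt1 without the transgene. In KO against Ctrl 0 of the 10 passed the test (edgeR, adjusted p from 0.864 to 0.992), 0 had an unadjusted p under 0.05 (5.52% of all genes did), and DESeq2's Wald test called 0. Among all genes tested 0.0187% passed (3 genes). Dnmt1 itself, lower by 1.93-fold with no overlap between the groups, did not pass either (adjusted p = 0.787, edgeR), so that a count of 0 does not show that the 10 genes were unaltered. Without KO replicate 2, whose thymocyte and B cell markers stood apart, the count was also 0. Ccng1 and Eda2r had all 3 KO libraries above all 3 Ctrl libraries, which is 2 of 10 genes against 12.4% of all genes. Ccng1 was at 203, 215 and 245 CPM in KO (log2 fold change 0.47, 95% interval -0.07 to 1.003, adjusted p = 0.864, edgeR).

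The depth and spread allowed changes of different size in KO. The 95% interval of Trp53 was -0.38 to 0.12 around a log2 fold change of -0.13, and that of Mdm2 was -0.51 to 0.12 around -0.20. The intervals of Cdkn1a (-1.08 to 0.95), Trp53inp1 (-0.98 to 0.55) and Eda2r (-0.74 to 4.13) were wider. KO replicate 2 held the lowest Trp53inp1 and Mdm2 of the thymus libraries and the highest Eda2r (4.13 CPM, beside 3.95 CPM in ALKKO replicate 2, a male). This library was the only one from a female and also stood apart in B cell and myeloid markers, so sex and cell content cannot be told apart in it. Without it the log2 fold change in KO was 0.07 for Trp53inp1 in place of -0.21, -0.50 for Cdkn1a in place of -0.06 and 0.91 for Eda2r in place of 1.70.

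With the transgene and the deletion together, again no change of the 10 genes passed the test. In ALKKO against Ctrl 0 of the 10 passed (edgeR, adjusted p = 0.9998 for each), and 0 with DESeq2's Wald test, against 0.187% of all genes (30 genes). Dnmt1, 1.99-fold lower, had an adjusted p of 0.259 in the same test (edgeR). None had an unadjusted p under 0.05, against 3.18% of all genes. Mdm2 alone had no overlap (log2 fold change -0.22, 95% interval -0.54 to 0.10), which is 1 of 10 genes against 17.5% of all genes. The 3 ALKKO libraries of Trp53inp1 lay within 1207 to 1380 CPM, next to 1200 to 1361 CPM in Ctrl, and its log2 fold change was -0.03 (95% interval -0.80 to 0.73). ALKKO replicate 2 was the highest of its group in Cdkn1a, Ccng1, Zmat3, Phlda3, Sesn2, Eda2r, Trp53inp1 and Mdm2. Without it the log2 fold change of Cdkn1a was -0.84 in place of -0.20, that of Phlda3 -0.88 in place of -0.49 and that of Eda2r -0.44 in place of 1.28, none of which passed.

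In ALKKO against KO, which asks for the effect of the transgene where Dnmt1 is deleted, 0 of the 10 passed (edgeR, adjusted p = 0.9998 for each), and 0 with DESeq2's Wald test, against 0.00623% of all genes (1 gene). None had an unadjusted p under 0.05, against 2.69% of all genes. The groups overlapped in all 10 genes, against 6.34% of all genes that did not overlap. The log2 fold change of Trp53 was 0.06 (95% interval -0.19 to 0.31) and that of Zmat3 was 0.03 (95% interval -0.38 to 0.45), so that rises of the size seen in tumors lay outside both intervals. Without KO replicate 2 the count was also 0, and these log2 fold changes were 0.11 (95% interval -0.15 to 0.37) and 0.10 (95% interval -0.37 to 0.58).

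**Figure D3:**
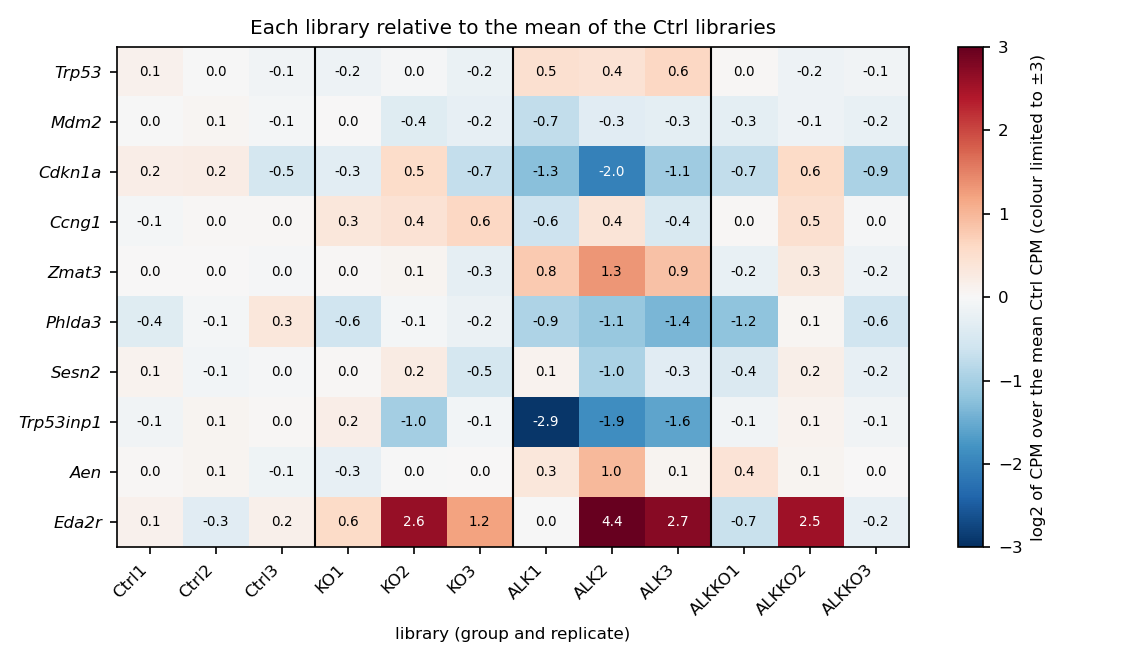
Log2 ratio of the CPM in each of the 12 libraries (columns, by group and replicate) to the mean CPM of the 3 Ctrl libraries, for the 10 genes (rows), with the colour limited to ±3. Falls of Cdkn1a, Phlda3 and Trp53inp1 and rises of Trp53 and Zmat3 run through the 3 ALK columns. Eda2r is highest in replicates 2 and 3 of ALK, followed by replicates 2 of KO and ALKKO.

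The direct comparison of both NPM-ALK groups gave 3 of the 10 genes at an adjusted p under 0.05 in ALK against ALKKO, beside 28.1% of all genes tested. Trp53 was higher in tumors by 1.49-fold (adjusted p = 0.00485, log2 fold change 0.58, SE 0.11) and Zmat3 by 2.04-fold (adjusted p = 0.0038, log2 fold change 1.03, SE 0.19), while Trp53inp1 was lower by 3.96-fold (log2 fold change -1.98, SE 0.36, adjusted p = 0.00352, edgeR). These 3 passed in 20 of 20 alternative analyses. Cdkn1a had no overlap between the groups but did not pass (log2 fold change -1.19, 95% interval -2.22 to -0.15, adjusted p = 0.0819, edgeR). With Trp53, Zmat3 and Trp53inp1, that made 4 of 10 genes without overlap, against 43.2% of all genes.

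The interaction of transgene and deletion was tested as the difference of ALK minus Ctrl and ALKKO minus KO. ALK libraries are tumors and the others are thymocytes, so tumor state and dependence on Dnmt1 cannot be told apart in it. Of the 10 genes 2 passed, beside 10.3% of all genes tested. They were Zmat3, with a difference of 0.99 ± 0.27 (SE) between the log2 fold changes (adjusted p = 0.0424), and Trp53inp1, with -2.20 ± 0.49 (adjusted p = 0.0234, edgeR). For Trp53 the difference was 0.45 (SE 0.16, adjusted p = 0.0988) and for Cdkn1a -1.25 (SE 0.65, adjusted p = 0.243, edgeR). The calls were lost when single mice were left out: the count was 0 without Ctrl replicate 1, 2 or 3 or without ALKKO replicate 3, fits in which 3.46% to 4.67% of all genes passed. It was 1 without KO replicate 1, 2 or 3, without ALK replicate 2 and without ALKKO replicate 1 or 2, where 4.485% to 11.1% of all genes passed.

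Levels of different genes were compared per kb of merged exon length. In Ctrl the order of mean levels was Trp53inp1 (200 ± 12.8 CPM per kb), Ccng1 (45.6 ± 1.54), Trp53 (41.7 ± 3.48), Mdm2 (32.3 ± 1.42), Phlda3 (27.5 ± 6.85), Cdkn1a (10.8 ± 2.84), Aen (6.86 ± 0.55), Sesn2 (6.06 ± 0.41), Zmat3 (2.90 ± 0.05) and Eda2r (0.115 ± 0.021), all SD with n = 3. Neighbours whose libraries overlapped were Ccng1 and Trp53, Mdm2 and Phlda3, and Aen and Sesn2. The same order of means held in KO, with or without replicate 2, and in ALKKO.

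In ALK the order of levels per kb changed, with Trp53 first (59.3 ± 4.20 CPM per kb), overlapping Trp53inp1 (49.4 ± 20.7), which overlapped Ccng1 (40.6 ± 16.1). Cdkn1a moved from the sixth to the ninth place (4.12 ± 1.31 CPM per kb), below Aen (9.79 ± 3.25), Zmat3 (5.88 ± 1.19) and Sesn2 (4.82 ± 1.71), and overlapped the last 2 of these. Eda2r was last in all 4 groups.

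The wider p53 pathway was followed in 4 lists that do not contain the 10 genes: regulators and family members of p53 (23 genes), cell cycle targets (14), apoptosis targets (17) and repair and metabolism targets (17). These lists were chosen with earlier results of these data known, so their shares beside those of all genes are a description only. In ALK against Ctrl 32 of the 70 genes tested passed, 18 higher and 14 lower, which is 45.7% beside 29.5% of all genes, and the median log2 fold change was 0.00. In ALK against ALKKO 26 passed, 13 higher and 13 lower (37.1% beside 28.1% of all genes). The count against Ctrl fell to 17 without Ctrl replicate 1 (24.3% of the pathway genes beside 16.1% of all genes), 18 without Ctrl replicate 2 (25.7% beside 18.5%), 21 without Ctrl replicate 3 (30% beside 18.3%) and 21 without ALK replicate 2 (30% beside 21.8%). The count against ALKKO fell to 15 without ALKKO replicate 1 (21.4% beside 18.2%) and to 13 without ALKKO replicate 3 (18.6% beside 16.8%). In KO against Ctrl, ALKKO against Ctrl and ALKKO against KO 0 of the 70 passed with edgeR, with or without KO replicate 2. With it, 4, 2 and 1 had an unadjusted p under 0.05 (edgeR), as did 5.52%, 3.18% and 2.69% of all genes. DESeq2's Wald test called only Zfp365 in ALKKO against Ctrl (adjusted p = 0.0148).

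Among regulators and family members, 9 of 23 rose and 3 fell in ALK against Ctrl (median log2 fold change 0.25). The shares were 39.13% and 13.04%, beside 14.8% higher and 14.7% lower among all genes. Hipk2, a kinase that phosphorylates p53 toward apoptosis, rose from 13.5 to 32.4 CPM in Ctrl to 62.8 to 273 CPM in ALK (log2 fold change 3.10, SE 0.54, adjusted p = 0.00283, edgeR). Rpl5, a ribosomal protein that can bind and block MDM2, rose from 29.1 to 37.3 CPM to 70.4 to 84.9 CPM (log2 fold change 1.16, adjusted p = 0.00153, edgeR), although near-identical pseudogene copies make its count uncertain. Rchy1, another ubiquitin ligase for p53, fell from 78.8 to 97.3 CPM to 53.7 to 60.5 CPM (log2 fold change -0.61, adjusted p = 0.00398, edgeR). Trp73, the family member p73, was at no more than 3 counts in each tumor and at least 3.30-fold lower than in Ctrl, where its mean was 0.768 ± 0.321 CPM (SD, n = 3). Its adjusted p was 0.0342 (edgeR), and the call was lost without any 1 Ctrl mouse and without ALK replicate 1 or 3 (highest adjusted p of 0.116).

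Cell cycle targets were divided, with 3 rising and 3 falling of 13 tested (median log2 fold change -0.32). Each is 23.1%, beside 14.8% higher and 14.7% lower among all genes. Btg2, an antiproliferative gene, fell from 779 to 855 CPM in Ctrl to 143 to 418 CPM in ALK (log2 fold change -1.64, SE 0.34, adjusted p = 0.00585, edgeR). Fbxw7, the substrate receptor of a ubiquitin ligase for cyclin E and MYC, fell from 64.7 to 71.4 CPM to 43.0 to 50.3 CPM (log2 fold change -0.56, adjusted p = 0.00687, edgeR). Psrc1 rose from 16.1 to 21.2 CPM to 41.8 to 73.0 CPM and Zfp365 from 4.18 to 4.44 CPM to 12.7 to 19.3 CPM (log2 fold changes 1.57 and 1.89, adjusted p = 0.00767 and 0.00376, edgeR).

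Apoptosis targets moved in both directions as well, with 4 rising and 5 falling of 17 (median log2 fold change -0.19). These are 23.5% and 29.4%, beside 14.8% higher and 14.7% lower among all genes. Bax, the pore-forming effector of mitochondrial apoptosis, rose from 35.9 to 46.0 CPM in Ctrl to 67.0 to 113 CPM in ALK (log2 fold change 1.07, SE 0.21, adjusted p = 0.00458, edgeR). Bbc3, which encodes the BH3-only protein PUMA, fell from 21.6 to 40.0 CPM to 5.17 to 12.4 CPM (log2 fold change -1.85, SE 0.36, adjusted p = 0.00496, edgeR). Dram1, a lysosomal modulator of autophagy, fell from 29.3 to 38.9 CPM to 4.54 to 7.27 CPM (log2 fold change -2.37, adjusted p = 0.000877), and Ei24 rose from 58.6 to 63.1 CPM to 87.7 to 120 CPM (log2 fold change 0.79, adjusted p = 0.00849, edgeR). In ALK against ALKKO the same counts were found, 4 higher and 5 lower (52.9% in all, beside 28.1% of all genes). Pmaip1, which encodes the BH3-only protein NOXA, was at 1.48 to 2.27 CPM in tumors, with 9.71 to 13.04 CPM in ALKKO (log2 fold change -2.68, SE 0.59, adjusted p = 0.00855, edgeR).

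Of the repair and metabolism targets, 2 of 17 rose and 3 fell (median log2 fold change -0.01). This is 29.4% of the list, near the 29.5% of all genes that passed. Ephx1, an epoxide hydrolase, fell from 40.1 to 50.5 CPM in Ctrl to 4.89 to 13.9 CPM in ALK (log2 fold change -2.49, SE 0.35, adjusted p = 0.00111, edgeR), and Dcxr, a xylulose reductase, from 15.2 to 19.3 CPM to 2.96 to 6.98 CPM (log2 fold change -1.64, adjusted p = 0.00632, edgeR). Rrm2b, the p53-inducible ribonucleotide reductase subunit, rose from 17.1 to 25.5 CPM to 28.8 to 39.2 CPM (log2 fold change 0.81, adjusted p = 0.0177, edgeR), a call lost without Ctrl replicate 1 or 2 and without ALK replicate 2 (highest adjusted p of 0.0832). Fdxr, ferredoxin reductase, was at 27.5 to 36.3 CPM in Ctrl, with 34.4 to 54.9 CPM in tumors (log2 fold change 0.55, adjusted p = 0.0496, edgeR) and passed in 4 of 20 alternative analyses, being lost without any 1 library other than ALK replicate 2 (highest adjusted p of 0.149).

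**Figure D4:**
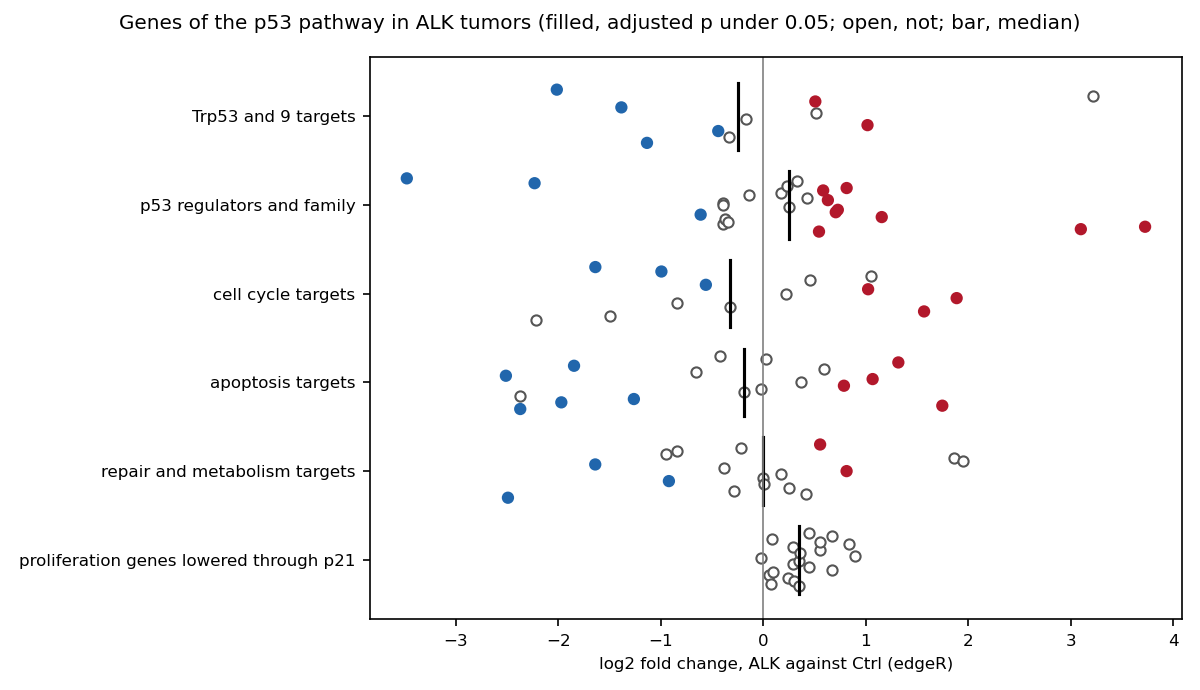
Log2 fold change of ALK against Ctrl (horizontal axis, edgeR) for the 10 genes, for the 4 lists of p53 regulators and targets and for proliferation genes lowered through p21. Each point is a gene, filled where its adjusted p is under 0.05 (red higher, blue lower), and the bar is the median of the list, between -0.32 and 0.35.

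The 20 proliferation genes that p53 is known to lower through p21, among them cyclins and mitotic kinases, did not pass the test beside the lower Cdkn1a. In ALK against Ctrl 0 of 20 passed with edgeR (29.5% of all genes did) and 0 with DESeq2's Wald test (38.8% of all genes did). With edgeR 1 had an unadjusted p under 0.05. The list had a median log2 fold change of 0.35 and 19 of the 20 above 0, beside a median of 0.05 and 52.5% above 0 among all genes. Their summed level was 3679 to 4719 CPM in Ctrl, with 2971 to 6780 CPM in tumors, so that the tumors lay on both sides of Ctrl. In KO replicate 2, where Cdkn1a was high, the sum was 1883 CPM, and in ALKKO replicate 2, where Cdkn1a was equally high, it lay within the 3992 to 4040 CPM of ALKKO. KO replicate 2 also stood apart in its thymocyte markers (4283 CPM) and B cell markers (5436 CPM). Single libraries do not show how the sum and Cdkn1a are related, which was not tested.

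As a description of likeness, the genes whose log2(CPM + 1) was closest to that of Trp53, Cdkn1a and Mdm2 over the 12 libraries were taken from the 16052 tested. For Trp53 they were Rps23 (Pearson r = 0.985), Epb41l4aos (0.981) and Ampd2 (0.974), all with their highest mean in ALK. For Cdkn1a they were Sertad1 (0.936), Map3k6 (0.935) and Bcl10 (0.934), all with their lowest mean in ALK, and for Mdm2 they were Fbxo11 (0.9746), Palld (0.955) and Phf8 (0.949). None of the other 9 members was among them, and without KO replicate 2 the r of these 9 genes lay between 0.927 and 0.991. The 12 points share the split into tumors and thymus, and near-identical copies of Rps23 elsewhere in the genome make its count uncertain.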

How the data were processed

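The authors sequenced stranded poly(A) libraries on single-end runs, trimmed reads with Trim Galore, aligned them to mm10 with STAR and deposited raw HTSeq counts of reads per gene for each of the 12 mice. The versions of these tools (other than Picard 2.19.2, from the submitters' processing notes), the annotation release and the strand setting are not given in the sources used here. Between 43.8% and 55.3% of the listed reads were in no gene's count and were left out. Of 50600 IDs, 50376 were matched to symbols and positions of GENCODE M21 (GRCm38).

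Counts were tested with edgeR 4.0.16 (R 4.3.3): TMM factors (0.914 to 1.06), filterByExpr, and a robust glmQLFit of all 12 libraries with 1 term per group. Contrasts were tested by glmQLFTest and p-values adjusted by Benjamini-Hochberg over 16052 genes. Standard errors were derived from the F statistic. The common biological coefficient of variation was 0.436. DESeq2 1.42.0 was an alternative, and the tests were checked on simulated counts. Libraries of the same group differed by more than sampling noise in every pair (chi-square over degrees of freedom from 13.5 to 207). Floors cover counting error only, since reads carry no molecular identifiers. Promoter windows are RefSeq's and plots were drawn with matplotlib 3.10.9 in Python 3.11.15.

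The rule for the members uses no measured value, but the members and the gene lists were chosen with earlier results of these data known. Named were all 10 members, Dnmt1, Alk and marker genes, the 2 genes with the lowest p in each direction of each pathway list in ALK against Ctrl, up to 4 passing genes of each list in the other comparisons, and the 3 genes most like Trp53, Cdkn1a and Mdm2. Comparisons with Ctrl share the same 3 libraries and are not independent. Groups, ages and sex come from the labels. As alternatives, the Wald test of DESeq2, its size factors within edgeR, 2 other filters on low counts, the replicate number, sex or labelled age as further terms, only the 2 groups compared, and leaving out each library in turn were tried.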

Additional observations from a re-analysis of the deposited data

Results flagged for a closer look

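The difference between ALK minus Ctrl (Dnmt1 intact) and ALKKO minus KO (Dnmt1 deleted) passed edgeR's interaction test for 2 of the 10 genes, Zmat3 (0.985 on the log2 scale) and Trp53inp1 (-2.195). Both calls lost significance in some alternatives: Zmat3 passed in 7 of 19, with adjusted p from 0.00842 to 0.116, and Trp53inp1 in 14 of 19, with adjusted p from 0.000333 to 0.0557 (edgeR and DESeq2). ALK libraries are tumors and ALKKO libraries are not, so that tumor state and deletion cannot be told apart in these values.

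In the p53 pathway lists 11 of 70 genes tested passed the same test, 15.7% beside 10.3% of all genes. Up to 4 genes of each list with the lowest p are named: Hipk2 (3.508), Rpl5 (1.065), Huwe1 (0.9011) and Rchy1 (-0.609) among the 6 regulators that passed, Bax (1.177), Ei24 (0.8792), Bbc3 (-1.971) and Dram1 (-2.051) among apoptosis targets, and Ephx1 (-2.12) among repair and metabolism targets. None of these 9 passed in all 19 alternatives; Ei24 passed in 4 and Dram1 in 18. Groups of 3 mice are too small for single outlying libraries to be called.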

How the results depend on the processing

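Across the alternatives, Trp53, Zmat3 and Trp53inp1 passed in 20 of 20 in ALK against Ctrl and in ALK against ALKKO, whereas Phlda3 passed in 15, Mdm2 in 12 and Cdkn1a in 9 of 20 in ALK against Ctrl; causes were not tested. Members passing in ALK against Ctrl numbered 3 with age as a covariate (26.7% of all genes) and 3 to 7 with 1 library left out (16.1% to 33.8%), against 6 (29.5%). The 2 members passing the interaction test (10.3% of all genes) became 1 with no low-count filter (3.71%), with at least 10 counts in every library (6.78%) and with sex as a covariate (11.7%). They became 0 to 2 with 1 library left out (3.46% to 15.5% of all genes). With only the 2 groups compared (fewer libraries set the spread), pathway genes passing numbered 20 in ALK against Ctrl (29.4%, beside 22.6% of all genes). They numbered 13 in ALK against ALKKO (19.1%, beside 17.05%). With 1 library left out they numbered 17 to 35 (24.3% to 50%, beside 16.1% to 33.8% of all genes) and 13 to 29 (18.6% to 41.4%, beside 16.8% to 32.2%). In ALKKO against Ctrl 1 passed with DESeq2's Wald test (Zfp365, 1.43% beside 0.723% of all genes). With only the 2 groups compared 1 passed (Btg2, 1.43% beside 0.886%). Both were named after their values were seen. Of 40 listed-gene differences named by rule, 21 passed in every alternative and 0 turned sign.

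Whether replicate numbers pair the libraries was not settled. Deviations from the group means correlated at -0.143 to 0.445 in same-numbered libraries, above 0.1 in 5 of 18 pairs. In pairs with unlike numbers they correlated at -0.462 to 0.261. With the replicate block 4 members passed in ALK against Ctrl, 3 in ALK against ALKKO, 2 in the interaction and 0 in the other comparisons, and 28 and 22 pathway genes in ALK against Ctrl and ALK against ALKKO.

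Of 1184 recomputed log2 fold changes of members, 36 turned sign, none of which passed in either fit. In KO against Ctrl, Cdkn1a was 0.0417 with age and Trp53inp1 0.069 with sex as a covariate. In ALKKO against KO with sex as a covariate, Cdkn1a was 0.30, Sesn2 0.0781, Trp53inp1 -0.10 and Eda2r 0.37. The others came from leaving out 1 library, with ranges as follows. In ALK against Ctrl, Ccng1 ranged from -0.56 to 0.027, and in ALK against ALKKO, Sesn2 ranged from -0.46 to 0.0333. In KO against Ctrl, Cdkn1a ranged from -0.50 to 0.16, Zmat3 from -0.11 to 0.0453, Sesn2 from -0.22 to 0.12 and Trp53inp1 from -0.48 to 0.071. In ALKKO against Ctrl, Cdkn1a ranged from -0.84 to 0.0529, Ccng1 from -0.0046 to 0.26, Zmat3 from -0.19 to 0.0715, Trp53inp1 from -0.10 to 1.58e-05 and Eda2r from -0.44 to 1.72. In ALKKO against KO, Mdm2 ranged from -0.10 to 0.0949, Cdkn1a from -0.76 to 0.31, Zmat3 from -0.13 to 0.13, Phlda3 from -0.60 to 0.0407, Sesn2 from -0.27 to 0.0811, Trp53inp1 from -0.10 to 0.44 and Eda2r from -2.12 to 0.38. In the interaction, Ccng1 ranged from -0.28 to 0.33 and Aen from -0.0756 to 0.41.

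Counts were low for Eda2r (7 to 160 reads per library) and for the family member Trp73 (1 to 33). Eda2r also differed widely between tumors, with a coefficient of variation of 108% in ALK.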
